A study of Mus musculus with 12 samples.

Results

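The genes described here encode proteins of the mitochondrial ribosome, taken as every gene whose symbol begins with Mrpl or Mrps and a digit in both deposited tables. There were 77 of them among the 18120 genes with values in both tables: 48 Mrpl genes, named for the large subunit, and 29 Mrps genes, named for the small subunit. They were read in mouse embryonic stem cells of the E14 line with the genotype RACK1-AID/RPS26-Tir1 Ribo-Tweezer, which all 4 groups share. In this system auxin (IAA) recruits TIR1, carried by the ribosomal protein RPS26, to a degron on RACK1, a protein of the cytosolic small subunit. Of the 4 groups of 3 poly(A) RNA libraries, IAA for 5 days was compared with DMSO for 5 days, and cells left without IAA for 10 days, following a 5-day course of it, were compared with their own DMSO control. The comparisons ask which RNAs differ while IAA is present and which still differ after its removal, and they share no library. The labels do not say whether replicates are separate cultures or how many clones the line stands for, so p-values reflect only the scatter of these libraries, which may be technical.

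Mitochondrial ribosomes translate the few messenger RNAs made from mitochondrial DNA, which code for core subunits of the respiratory chain and ATP synthase. Their proteins are encoded in the nucleus, made by cytosolic ribosomes and imported, while their ribosomal RNAs come from mitochondrial DNA. Many of the proteins have a bacterial homologue, and others are specific to mitochondria. Promoters of mitochondrial protein genes are known for binding sites of NRF1 and of the ETS factor GABP.

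RefSeq promoter windows (GRCm38.p6, 250 bases before to 50 after a gene's start) were matched for 68 of the 77 genes, as 74 windows. Those printed belong to the called Mrpl gene and the called Mrps gene with the smallest 5-day p (Mrpl24, and Mrps2, which is also the single rise), and to Mrps12 and Mrpl32, which were added after their values were seen as windows that hold matches. Mrpl24 is at chr3:87919294-87919593 on the plus strand, Mrps2 at chr2:28467816-28468115 on the plus strand, Mrps12 at chr7:28741772-28742071 on the minus strand and Mrpl32 at chr13:14612988-14613287 on the minus strand. Capitals mark matches to the motifs described next.
Mrpl24: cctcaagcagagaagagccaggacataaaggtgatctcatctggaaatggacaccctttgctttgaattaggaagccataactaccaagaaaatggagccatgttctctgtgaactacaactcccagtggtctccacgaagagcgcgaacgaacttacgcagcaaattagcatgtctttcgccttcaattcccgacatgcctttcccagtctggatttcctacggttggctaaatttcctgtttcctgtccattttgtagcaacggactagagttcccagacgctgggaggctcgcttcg
Mrps2: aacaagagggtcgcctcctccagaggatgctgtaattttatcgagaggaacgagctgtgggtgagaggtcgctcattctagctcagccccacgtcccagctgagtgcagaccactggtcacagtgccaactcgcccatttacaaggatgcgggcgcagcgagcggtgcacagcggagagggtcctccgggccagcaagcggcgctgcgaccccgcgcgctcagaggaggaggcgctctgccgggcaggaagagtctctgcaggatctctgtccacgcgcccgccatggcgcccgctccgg
Mrps12: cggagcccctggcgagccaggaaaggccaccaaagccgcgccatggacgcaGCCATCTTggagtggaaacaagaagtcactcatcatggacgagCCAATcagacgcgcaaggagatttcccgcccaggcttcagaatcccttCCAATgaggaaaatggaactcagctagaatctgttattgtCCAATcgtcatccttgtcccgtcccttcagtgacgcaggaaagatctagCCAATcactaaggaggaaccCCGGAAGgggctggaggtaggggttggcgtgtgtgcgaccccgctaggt
Mrpl32: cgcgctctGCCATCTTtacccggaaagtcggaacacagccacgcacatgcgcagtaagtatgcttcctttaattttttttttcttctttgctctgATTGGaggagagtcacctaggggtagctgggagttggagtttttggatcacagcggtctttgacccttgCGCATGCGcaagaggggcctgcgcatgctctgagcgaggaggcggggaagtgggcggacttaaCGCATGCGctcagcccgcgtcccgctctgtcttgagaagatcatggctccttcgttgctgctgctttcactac

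The letters searched, on both strands, were CGCATGCG for NRF1, CCGGAAG for ETS factors such as GABP, AAGATGGC for YY1, CACGTG for the E-box and CCAAT for the CCAAT box. No 2 motifs shared bases in a member window. The ETS letters stood in 33.8% of the 74 member windows (29.8% of Mrpl windows and 40.7% of Mrps windows), in 20.5% of windows of genes at a mean level of 4 log2 CPM or more, and in 8.86% of all 32851 windows. The YY1 letters stood in 16.2% of member windows (12.8% of Mrpl windows and 22.2% of Mrps windows), in 5.42% of windows of genes at that level and in 2.75% of all windows. The NRF1 letters stood in 9.46% of member windows (12.8% of Mrpl windows, 6 of 47, and 3.70% of Mrps windows, 1 of 27), in 4.63% of windows of genes at that level and in 1.87% of all windows. The CCAAT letters stood in 39.2% of member windows, in 38.4% of windows of genes at that level and in 37.4% of all windows. The E-box letters stood in 9.46% of member windows, in 11.2% of windows of genes at that level and in 7.15% of all windows, and counted by gene in 7.35% of members, 13.4% of genes at that level and 8.09% of all genes. The windows of Mrpl24 and Mrps2 held none of these letters, while Mrps12 held ETS, YY1 and CCAAT letters and Mrpl32 held NRF1, YY1 and CCAAT letters. For the ETS letters, the median 5-day log2 fold was -0.14 in the 25 genes with a match and -0.14 in the 43 without. The subunits went opposite ways: -0.13 with and -0.19 without in Mrpl, -0.18 with and -0.12 without in Mrps. Over both subunits the medians with and without a match were -0.09 and -0.15 for NRF1, -0.14 and -0.14 for YY1. They were -0.26 and -0.14 for the E-box (5 genes with a match), -0.16 and -0.12 for CCAAT. None of these differences was tested.

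The files hold no values of single libraries, only the authors' limma results for each comparison, so the spread over libraries enters through the standard error (SE) implied by the fold and its t statistic. The levels of each group given below in CPM (counts scaled to the library size) were derived from the deposited mean log2 CPM and fold. A positive fold is read as higher with IAA, which the headers do not state. The 5-day minus 10-day mean level was regressed on the 5-day fold over 4772 genes that passed at 5 days. The slope was 0.53 ± 0.01 (SE, genes treated as independent). Reading a positive fold as higher with IAA gives 0.5, and the opposite reading -0.5, if the DMSO controls are alike. With this reading they were not fully alike. Over 7327 genes at 4 log2 CPM or more at both times, the 10-day minus 5-day DMSO level ran from -3.2 to 2.7 (median -0.0075). Whether this went with the 5-day fold was not tested. The effective library size, as a geometric mean, came to 23.3M reads in the 5-day table and 21.2M in the 10-day table. The mean level of the members ran from 4.27 to 7.42 log2 CPM at 5 days, against a median of 3.03 over all genes. This corresponds to about 450 to 4002 reads per gene and library.

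After 5 days of IAA, RNAs of mitochondrial ribosomal proteins were slightly lower than in DMSO cells, in both subunits. At a limma Benjamini-Hochberg (BH) adjusted p under 0.05 in the authors' deposited table, 24 of the 77 genes fell and 1 rose, where 12.1% of all 18765 genes fell and 13.5% rose. Among genes at 4 log2 CPM or more, the level of every member, 21.8% fell. Folds were below 0 in 66 of the 77 genes, and the median log2 fold was -0.14, against 0.01 over all genes and -0.04 over genes at 4 log2 CPM or more. The derived levels summed to 4480 CPM over the 77 genes in IAA cells, against 4899 CPM in DMSO cells, a change of -8.55%. Fewer cells of a type and less RNA per cell cannot be told apart in bulk samples. All folds of a comparison come from the same 6 libraries, so an offset shared by the members does not become more certain with their number.

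**Figure D1:**
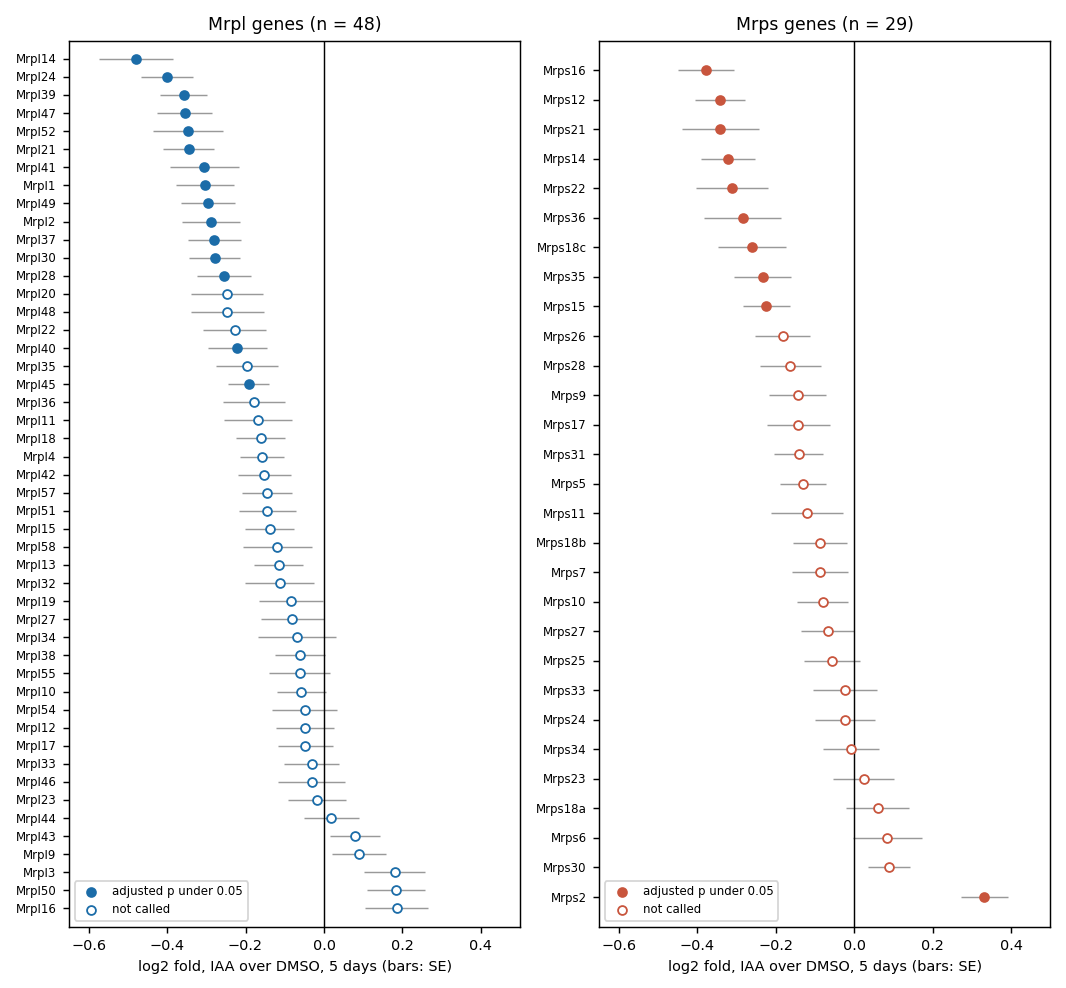
Log2 fold of IAA over DMSO at 5 days for each Mrpl gene (left, blue) and each Mrps gene (right, red), in order of the fold. Bars are the SE implied by the authors' deposited table, and filled points have a limma BH adjusted p under 0.05: 15 Mrpl and 9 Mrps genes lie below 0 and Mrps2 above.

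The subunits are set side by side without a test, beside the 21.8% of genes at 4 log2 CPM or more that fell. Of the 48 Mrpl genes 15 fell and 0 rose (31.3% fell, and 3 had a fold above 0 at an unadjusted limma p under 0.05), and of the 29 Mrps genes 9 fell and 1 rose (31.0% fell). The median log2 fold was -0.15 in Mrpl and -0.13 in Mrps, and 42 of 48 and 24 of 29 folds were below 0. The summed level was 2888 CPM in IAA cells, against 3201 CPM in DMSO cells, for Mrpl (-9.75%), and 1592 CPM in IAA cells, against 1699 CPM in DMSO cells, for Mrps (-6.28%). The symbols do not follow the structure fully, since the products of Mrps30 and Mrps18a sit in the large subunit and Mrps36 in neither. Sorted by where the protein sits, 15 of 50 large-subunit genes fell with a median of -0.14, and 8 of 26 small-subunit genes fell and 1 rose with a median of -0.14.

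**Figure D2:**
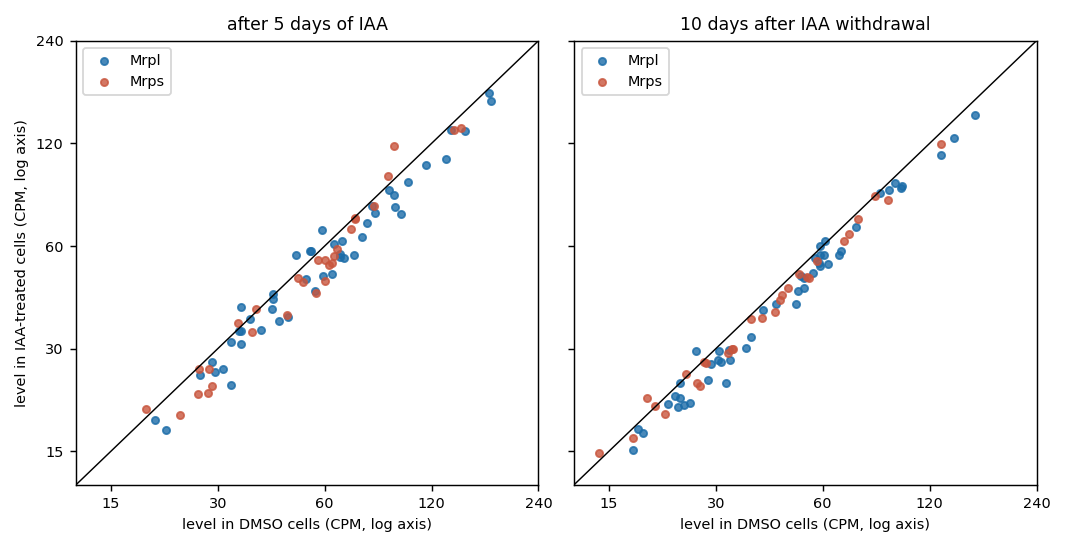
Level of each gene in IAA-treated cells (vertical, CPM on a log axis) against its level in DMSO cells (horizontal, CPM on a log axis) after 5 days of IAA (left) and 10 days after withdrawal (right), as derived from the deposited means and folds. Points below the line are lower with IAA: 66 of 77 genes at 5 days and 68 of 77 at 10 days.

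Among Mrpl genes with a bacterial homologue, the falls with the smallest p were Mrpl24, Mrpl21, Mrpl14, Mrpl47 and Mrpl30. Mrpl24 (ENSMUST00000019854.12, with 6 exons at chr3:87919506-87923672, plus strand, in GENCODE M21 for GRCm38), a counterpart of a bacterial protein that binds early in large-subunit assembly, was at 74.6 CPM in IAA cells, against 98.4 CPM in DMSO cells. The authors' deposited table gave it a log2 fold of -0.40 ± 0.07 (SE; limma, BH adjusted p = 0.000762). Mrpl14 (chr17:45686322-45698495), which lies at the face that joins the small subunit, was at 23.5 CPM in IAA cells, against 32.7 CPM in DMSO cells, and its -0.48 ± 0.09 was the lowest fold of the family in the authors' deposited table (limma BH adjusted p = 0.00223). Mrpl21 was at 49.7 CPM in IAA cells, against 63.1 CPM in DMSO cells. Mrpl47, the counterpart of a bacterial protein beside the exit of the peptide tunnel, was at 37.1 CPM in IAA cells, against 47.4 CPM in DMSO cells. Mrpl30 was at 49.0 CPM in IAA cells, against 59.4 CPM in DMSO cells. The listed transcripts of Mrpl14, Mrpl21, Mrpl24 and Mrpl47 each overlap an exon of a gene on the opposite strand (Tmem63b, Ighmbp2, Rrnad1, and Actl6a with Ndufb5). Whether counting used strand is not stated, so reads of such partners cannot be told apart here.

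The mitochondria-specific Mrpl genes named by the same rule were Mrpl39, Mrpl49 and Mrpl37. Mrpl39 was at 56.7 CPM in IAA cells, against 72.6 CPM in DMSO cells, and its log2 fold was -0.36 ± 0.06 in the authors' deposited table (limma BH adjusted p = 0.000787). Mrpl49 was at 55.4 CPM in IAA cells, against 68.0 CPM in DMSO cells, and Mrpl37 at 78.1 CPM in IAA cells, against 94.8 CPM in DMSO cells. Both fell, with log2 folds of -0.30 ± 0.07 and -0.28 ± 0.07 in the authors' deposited table. Mrpl45, a highly expressed member whose product anchors the ribosome at the inner membrane, fell by less, to 131 CPM in IAA cells, against 149 CPM in DMSO cells (log2 fold -0.19 ± 0.05 in the authors' deposited table, limma BH adjusted p = 0.0161). Mrpl52 and Mrpl41, the latter among the lowest members in CPM, also fell, with -0.35 ± 0.09 and -0.31 ± 0.09 in the authors' deposited table. Mrpl1, Mrpl2, Mrpl28 and Mrpl40, called but outside the rule for named genes and added after their values were seen, had -0.30 ± 0.07, -0.29 ± 0.07, -0.26 ± 0.07 and -0.22 ± 0.08 in the authors' deposited table. Of 29 Mrpl genes with a bacterial homologue 8 fell (27.6%, median -0.16), and of 18 mitochondria-specific ones 7 fell (38.9%, median -0.15). Of all genes 12.1% fell, and of genes at 4 log2 CPM or more 21.8%. Whether these groups differ was not tested.

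In the small subunit the falls named were Mrps12, Mrps16, Mrps14, Mrps22, Mrps21, Mrps15, Mrps35 and Mrps18c. Mrps12 (chr7:28739642-28741820, minus strand, 3 exons), whose bacterial counterpart helps form the decoding centre, was at 47.6 CPM in IAA cells, against 60.3 CPM in DMSO cells. The log2 fold was -0.34 ± 0.06 in the authors' deposited table (limma BH adjusted p = 0.00167). Mrps16, mutated in a human oxidative phosphorylation deficiency, was at 43.7 CPM in IAA cells, against 56.8 CPM in DMSO cells, with -0.38 ± 0.07 in the authors' deposited table (limma BH adjusted p = 0.00191). Mrps14 was at 37.7 CPM in IAA cells, against 47.1 CPM in DMSO cells. The mitochondria-specific Mrps22, also mutated in a human deficiency, was at 23.3 CPM in IAA cells, against 29.0 CPM in DMSO cells, and Mrps35 was at 53.6 CPM in IAA cells, against 63.0 CPM in DMSO cells. Mrps21, Mrps15 and Mrps18c, each with a bacterial counterpart, had log2 folds of -0.34 ± 0.10, -0.22 ± 0.06 and -0.26 ± 0.09 in the authors' deposited table. The Mrps21 transcript matches a processed pseudogene at 97.4% identity over 54.1% of its length, so its reads may be shared. The Mrps18c transcript overlaps an exon of Gm43511 on the same strand, so its reads may be shared too. Of 18 Mrps genes with a bacterial homologue 6 fell (33.3%) and 1 rose (median -0.14), and of 10 mitochondria-specific ones 2 fell (20.0%, median -0.06). These shares stand beside 12.1% of all genes and 21.8% of genes at 4 log2 CPM or more, and whether they differ was not tested. Mrps36, whose product is now known as a subunit of the 2-oxoglutarate dehydrogenase complex, fell as well (19.3 CPM in IAA cells, against 23.4 CPM in DMSO cells), close to the threshold (limma, BH adjusted p = 0.0493 in the authors' deposited table).

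Mrps2 was the single member that rose. The gene (ENSMUST00000038600.3, 4 exons at chr2:28468066-28471178, plus strand) encodes a small-subunit protein with a bacterial counterpart. It was at 118 CPM in IAA cells, against 93.9 CPM in DMSO cells. The authors' deposited table gave a log2 fold of 0.33 ± 0.06 (SE) and, by limma, a BH adjusted p of 0.00127. The next highest folds in the family, in Mrpl16 (0.19 ± 0.08), Mrpl50 (0.18 ± 0.07) and Mrpl3 (0.18 ± 0.08), did not pass in the authors' deposited table. With the length and GC trend described below removed, without or with mean level, Mrpl16 and Mrpl50 were called higher. Mrpl50 was also called higher with the coding length trend removed.

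Of the members named for a high level, Mrps2 (higher) and Mrpl45 (lower) passed, and Mrpl12, Mrpl15, Mrps5 and Mrps18b did not. Mrpl12, which forms the flexible stalk of the large subunit, was at 169 CPM in IAA cells, against 174 CPM in DMSO cells, with a log2 fold of -0.05 ± 0.07 in the authors' deposited table. Mrpl15 was at 160 CPM in IAA cells, against 176 CPM in DMSO cells (log2 fold -0.14 ± 0.06 in the authors' deposited table, not passing), and Mrps5 at 133 CPM in IAA cells, against 146 CPM in DMSO cells. The Mrps5 fold in the authors' deposited table was -0.13 ± 0.06, not passing. The folds of Mrpl15 and Mrps5 lay close to the median of the family. Both genes were called lower with the length and GC trend described below removed. Mrps18b was at 131 CPM in IAA cells, against 139 CPM in DMSO cells. Besides those above, the members named for a low level in CPM were Mrpl19, Mrpl32 and Mrps6. Mrpl19 was at 25.2 CPM in IAA cells, against 26.7 CPM in DMSO cells. Mrpl32 was at 18.5 CPM in IAA cells, against 20.0 CPM in DMSO cells, and Mrps6 at 19.9 CPM in IAA cells, against 18.8 CPM in DMSO cells. None of these passed. CPM is not scaled to transcript length. Per kilobase of transcript, Mrps6 was at 4.52 log2 CPM at 5 days and Mrps5 at 4.96, against a median of 5.24 over the members. Mrpl48, not named for its level, was lower at 2.73. Across the members the 5-day fold had a Spearman rho of 0.09 with the mean level (n = 77 genes sharing 6 libraries, a description only). The SD of the 77 folds was 0.15 and their median SE 0.07, so the folds differed between members by more than the SE.

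**Figure D3:**
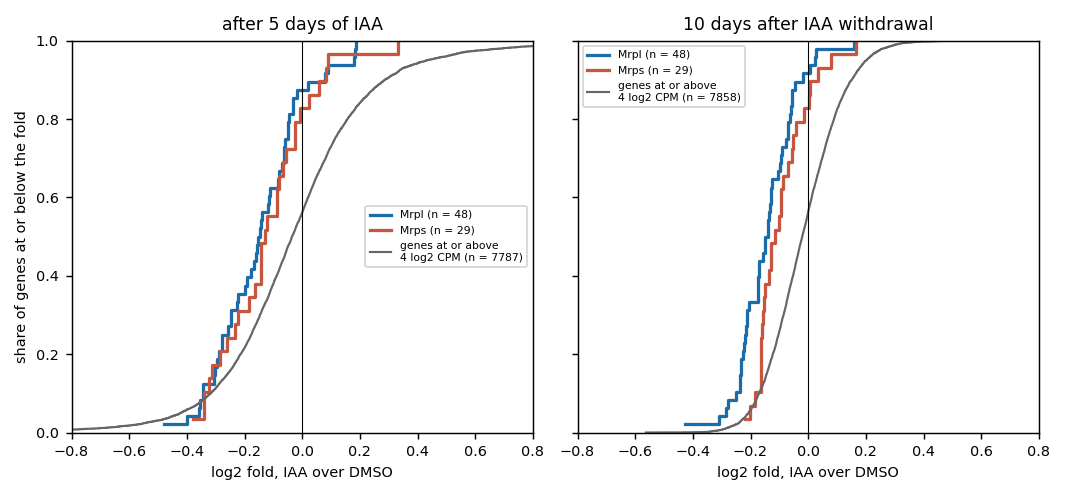
Share of genes (vertical) at or below each log2 fold of IAA over DMSO (horizontal) for Mrpl (blue), Mrps (red) and all genes at a mean level of 4 log2 CPM or more (grey), at 5 days (left) and 10 days after withdrawal (right). Medians are -0.15, -0.13 and -0.04 at 5 days, and -0.14, -0.12 and -0.02 at 10 days.

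Members share transcript features that go with the fold over all genes. Their median transcript length was 1280 bases, against 2743 over all genes of the 5-day table, and their median coding length 591 bases, against 1236. Over all 18120 genes the 5-day fold had a Spearman rho of 0.18 with transcript length, and over the members one of 0.08. With a trend on transcript length and GC content removed from the 5-day folds, 17 members were called lower (22.1%) and 4 higher (5.19%), where 13.2% of all genes were lower and 11.6% higher, and the median was -0.12 in Mrpl and -0.05 in Mrps. With mean level added to the trend, 10 were lower (13.0%) and 5 higher (6.49%). Over all genes 12.2% were lower and 11.3% higher, so the share of lower calls was near that of all genes. For neither trend was the share computed over genes at 4 log2 CPM or more, of which 21.8% fell as deposited. With mean level added the median was -0.01 over the members and -0.06 over all genes. The latter includes genes below 1 log2 CPM, to which the trend was extrapolated, so the medians are not matched in level. Mrpl1, Mrpl14, Mrpl21, Mrpl24, Mrpl39, Mrpl47, Mrps14, Mrps16 and Mrps35 were called lower, and Mrps2 higher, in the deposited table and with each of 3 trends (these and one on coding length) removed. The share of all genes called in every one of these settings was not computed. In the single settings 12.1% to 14.9% of all genes were lower and 11.3% to 13.5% higher. Of the 24 deposited falls, 11 no longer passed with the length and GC trend removed (Mrpl2, Mrpl28, Mrpl30, Mrpl40, Mrpl41, Mrpl52, Mrps15, Mrps18c, Mrps21, Mrps22 and Mrps36). With mean level added, 15 did not pass, Mrpl37, Mrpl45, Mrpl49 and Mrps12 being the others. Called lower with the length and GC trend removed, though not as deposited, were Mrpl15, Mrpl48, Mrps26 and Mrps5. With mean level added this held for Mrpl48 alone. Mrpl and Mrps transcripts had median coding lengths of 592.5 and 591 bases and median GC fractions of 0.507 and 0.497. Leaders without an upstream AUG were listed for 27 of 48 Mrpl and 22 of 29 Mrps transcripts, including all 10 mitochondria-specific Mrps genes, against 45.6% of all genes with a value. Among genes at 4 log2 CPM or more the share was 50.3%. Median leader lengths were 94.5 bases in Mrpl, 60 in Mrps and 44.5 in mitochondria-specific Mrps, against 168 over all genes. The part of leader length in these shares was not tested.

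**Figure D4:**
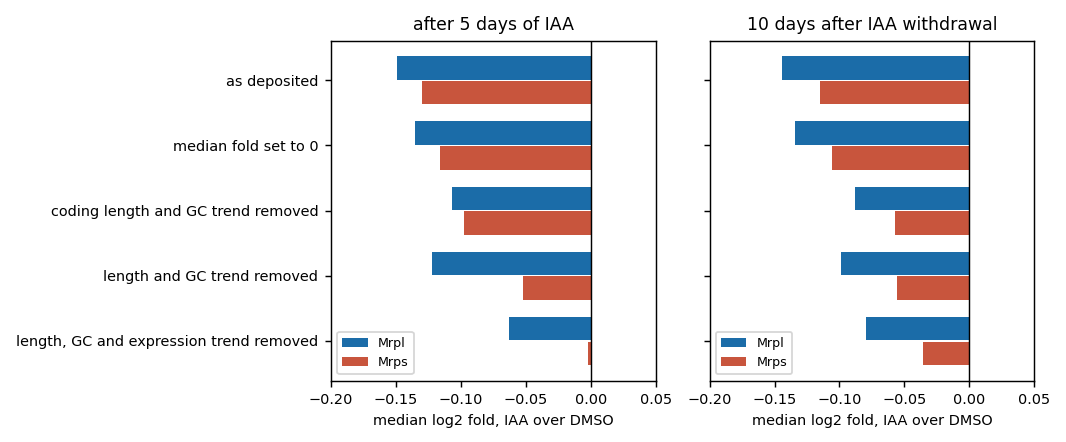
Median log2 fold of IAA over DMSO for Mrpl (blue bars) and Mrps (red bars) as deposited and under 4 other treatments of the folds, at 5 days (left) and 10 days after withdrawal (right). At 5 days the Mrps median moves to -0.05 with the length and GC trend removed and to -0.002 with mean level added.

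At 10 days after IAA was withdrawn, no member passed. The limma BH adjusted p in the authors' deposited table lay between 0.901 and 0.996 over the 77 members, and 0.0% of all 18712 genes were called, the smallest adjusted p being 0.822. At an unadjusted p under 0.05 there were 3 members, all lower (3.90%, against 4.30% of all genes). Folds were below 0 in 68 of 77 members, with a median log2 fold of -0.14 (-0.14 in Mrpl and -0.12 in Mrps), against 0.00 over all genes and -0.02 over genes at 4 log2 CPM or more. With the length and GC trend removed the 10-day median was -0.07 (-0.10 in Mrpl and -0.06 in Mrps), and with mean level added it was -0.05 (-0.08 in Mrpl and -0.04 in Mrps). The summed level was 3559 CPM in cells after IAA withdrawal, against 3890 CPM in their DMSO control (-8.49%). The SD of the members' 10-day folds, 0.10, was smaller than their median SE of 0.12, so differences between members at this time were within the SE. Members below 0 at both times numbered 59. Of the 24 that fell at 5 days 21 were below 0 at 10 days, a share near that of all members (68 of 77).

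The lowest 10-day fold was that of Mrpl52, a mitochondria-specific large-subunit gene, at 23.8 CPM after IAA withdrawal, against 32.1 CPM in the DMSO control. Its log2 fold was -0.43 ± 0.14 in the authors' deposited table (limma BH adjusted p = 0.901). Mrpl21 had 40.7 CPM after IAA withdrawal, against 50.4 CPM in the DMSO control, and Mrpl41 had 20.8 CPM after IAA withdrawal, against 25.4 CPM in the DMSO control. The Mrps genes with the smallest 10-day p, Mrps21, Mrps14 and Mrps24, had log2 folds of -0.22 ± 0.12, -0.20 ± 0.13 and -0.18 ± 0.12 in the authors' deposited table.

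The 5-day fold minus the 10-day fold was tested by a two-sided z test, BH adjusted over the 18120 shared genes, where 10.4% were called. Mrps2 was the 1 member called: its difference was 0.33 ± 0.11 (adjusted p = 0.0248), with 84.3 CPM after IAA withdrawal, against 84.1 CPM in the DMSO control. At an unadjusted p under 0.05 there were 10 members (13.0%, below the 22.9% of all genes), among them Mrpl16 (0.42 ± 0.17), Mrps12 (-0.38 ± 0.15), Mrpl14 (-0.40 ± 0.18), Mrpl49 (-0.32 ± 0.14) and Mrps36 (-0.45 ± 0.20). The median difference over the members was 0.00. The 5-day and 10-day folds of the members had a Pearson r of 0.17 (n = 77, no test).

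**Figure D5:**
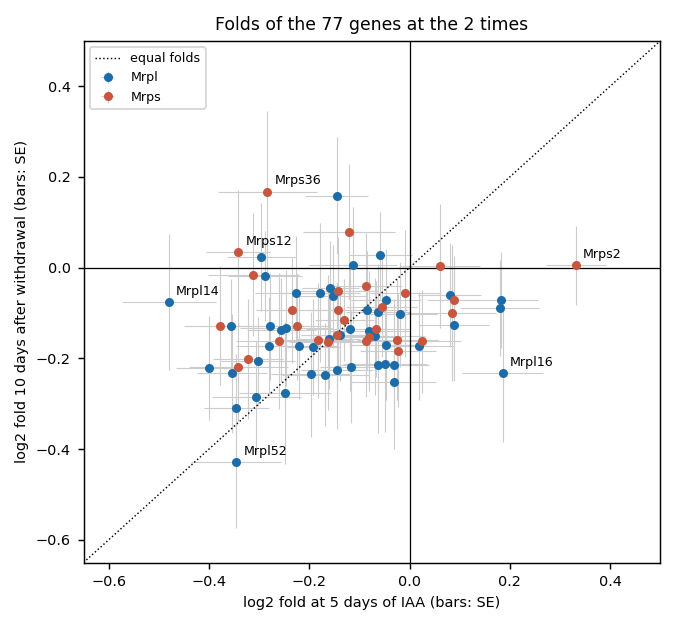
Log2 fold of IAA over DMSO at 10 days after withdrawal (vertical) against that at 5 days (horizontal) for the Mrpl (blue) and Mrps (red) genes, with SE bars on both axes and a dotted line of equal folds. Of the 77 genes 59 lie in the lower left field, and Mrps2 lies farthest right with a 10-day fold near 0.

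Beside the members, partner groups are given as counts and medians. At 5 days 12.1% of all genes fell, and 21.8% of genes at 4 log2 CPM or more. Of 82 cytosolic ribosomal protein genes 62 fell at 5 days (median log2 fold -0.21, and -0.15 at 10 days). Of 37 nuclear complex I genes 31 fell (median -0.31, and -0.17 at 10 days). Of the 13 mitochondrial mRNAs, which these ribosomes translate, 10 fell at 5 days, with a median of -0.26, and the 10-day median was 0.17. None rose at 5 days and none was called at 10 days. Whether the members differ from these groups was not tested.

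Other genes of mitochondrial translation are given as lists at 5 days, to be read against the 12.1% of all genes that fell and the 13.5% that rose. Of 5 mitochondrial ribosomal proteins with other names, Dap3, a small-subunit GTP-binding protein, fell (-0.36 ± 0.07 in the authors' deposited table), and the others did not pass. Of 14 translation factors 4 fell and 0 rose: Oxa1l, the inner-membrane insertase (-0.31 ± 0.06), Tufm, the elongation factor that delivers tRNA (-0.26 ± 0.06), the release-factor homologue Mtrf1 (-0.37 ± 0.10) and the recycling factor Gfm2 (-0.17 ± 0.05), in the authors' deposited table. Of 25 assembly and rRNA modification genes 3 fell and 2 rose. In the authors' deposited table the assembly factor Mpv17l2 had -0.45 ± 0.09, the small-subunit maturation factor Rbfa -0.31 ± 0.06 and the methyltransferase gene Mettl15 -0.58 ± 0.19, while the helicase genes Ddx28 and Dhx30 had 0.25 ± 0.08 and 0.14 ± 0.05. Of 20 tRNA synthetase and amidotransferase genes 5 fell and 1 rose. In the authors' deposited table Lars2 had -0.60 ± 0.09, Cars2 -0.36 ± 0.07, Aars2 -0.29 ± 0.06, Hars2 -0.29 ± 0.09 and Gatb -0.32 ± 0.10, and Yars2, which rose, had 0.26 ± 0.07. Of 11 mitochondrial DNA transcription and replication genes, the polymerase gene Polg rose (0.45 ± 0.05 in the authors' deposited table) and Slirp, which stabilizes mitochondrial mRNAs, the single-stranded DNA-binding Ssbp1 and the RNA polymerase gene Polrmt fell (-0.36 ± 0.07, -0.29 ± 0.06 and -0.21 ± 0.06). Among 9 regulators, the GABP subunit gene Gabpa (-0.22 ± 0.05) and the coactivator gene Ppargc1b (-0.55 ± 0.14) fell and Gabpb1, of the other GABP subunit, rose (0.20 ± 0.07), while Nrf1 (0.00 ± 0.07) and Yy1 (0.01 ± 0.05) did not pass in the authors' deposited table. No gene of these lists was called at 10 days.

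Gene position was described for the 72 members whose listed transcript is in GENCODE M21. The other 5 were not placed. The placed ones lay on 17 chromosomes, 11 of them on chromosome 11, and 22 overlapped an exon on the opposite strand. On the same strand 4 overlapped an exon of another gene (Mrpl33, Mrpl51, Mrps18c and Mrps6), so their reads may be shared. A protein-coding neighbour started head to head within 1000 bases for 25 members, and Mrpl46 and Mrps11 form such a pair with each other, 30 bases apart. Against 12.1% of all genes lower and 13.5% higher, of 23 neighbours outside the family with values 3 fell (Ndufb5 with -0.38, Psma2 with -0.25 and Ndufs6 with -0.33 on the log2 scale in the authors' deposited table) and 1 rose (Eme2, beside Mrps34, with 0.86), and among these pairs only Mrpl47 and Ndufb5 both fell. Besides Mrps21, the transcripts of Mrpl22, Mrpl23, Mrpl27, Mrpl42 and Mrps10 match a processed pseudogene at 95% identity or more over at least 50% of their length, and their reads may be shared.

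Markers bear on what the libraries hold. The 5 pluripotency markers were high, at 8.70 to 10.7 log2 CPM at 5 days, and all 5 fell there (Pou5f1, Sox2, Nanog, Esrrb and Zfp42, median log2 fold -0.57), with 0 called at 10 days. Of 9 fibroblast markers with values at 5 days 1 rose (Lox) and 0 fell, and their summed level was 3.88 log2 CPM in IAA cells, against 3.77 log2 CPM in DMSO cells. At 10 days 8 had values, none called, with a sum of 4.32 log2 CPM after IAA withdrawal, against 3.88 log2 CPM in the DMSO control. Of 3 blood markers Ptprc alone had a value, -5.16 log2 CPM at 5 days. The part of these shifts in the members' folds was not tested.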

How the data were processed

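Poly(A) RNA-seq of 12 libraries in 4 groups was used, per the labels. The authors deposited 2 limma result tables, 1 per comparison, with 1 transcript per gene: the log2 fold and mean log2 CPM, the moderated t and log-odds as scores without a unit, and the p-value with its BH adjusted value, per the file headers. The authors also deposited transcript lengths and upstream AUG numbers (other units), GC content as a fraction and folding energies as scores of unnamed unit. The aligner, counting program, strand setting, build and limma version were not given in any source used here. A filter or shrinkage upstream can move folds of rare genes, and poly(A) selection with length or GC dependence moves whole classes of genes.

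From the tables (Python 3.11.15, pandas 2.3.3, SciPy 1.17.1, BLAST+ 2.17.0) the SE was taken as fold over t, group levels as the mean plus or minus the fold divided by 2, and 2 folds were compared by a z test with BH adjustment over 18120 genes. The z test takes the SEs as known although t had 13.4 and 15.2 degrees of freedom. BH recomputed over the tables differed from the deposited values by at most 4.86e-05. On simulated data the z test found 58.5% of 200 changes of 0.5 log2 and 100% of changes of 1. Of its calls 3.31% and 6.54% were false. The simulated noise was normal with the SE known, and changes were placed only in genes at 4 log2 CPM or more. It therefore cannot show how the z test behaves with an estimated SE. The trend fits used genes at 1 log2 CPM or more. Lower and higher calls are at an adjusted p under 0.05. Genes were named for every called rise, the 8 falls with the smallest p, the 3 highest and 3 lowest levels in Mrpl and Mrps, the 3 with the largest difference between times and the 3 with the smallest 10-day p. The members and lists were chosen with earlier results of these data known. Depth was read from 552 and 478 genes that share the commonest low mean level, taken as 1 read in 1 library with a prior count of 0.5.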

Additional observations from a re-analysis of the deposited data

Results flagged for a closer look

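Mrps2 was set apart because its effect of IAA differed between the times by a test of the difference itself. The 5-day minus 10-day log2 fold was 0.33 ± 0.11 (SE), with a z test BH adjusted p of 0.0248 over 18120 genes. The level was 118 CPM in IAA cells, against 93.9 CPM in DMSO cells, at 5 days, and 84.3 CPM after IAA withdrawal, against 84.1 CPM in its DMSO control, at 10 days. The cause was not tested.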

How the results depend on the processing

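With the median fold set to 0, or only genes at 1 log2 CPM or more adjusted, 21 and 27 members were lower (all genes: 11.2% and 19.6%) and 1 higher in each. With the length and GC trend removed, higher calls were 4 (Mrpl 3; all genes 11.6%). With mean level added, lower calls were 10 (Mrpl 7, Mrps 3; all genes 12.2%), higher calls 5 (Mrpl 4; all genes 11.3%), and the medians -0.0079 over all members and -0.0018 in Mrps. With the Benjamini-Yekutieli adjustment lower calls were 8 (Mrpl 5, Mrps 3, against 5.04% of all genes). The difference between times then had 0 members called, where 2.56% of all genes were called above 0 and 2.01% below. At an adjusted p under 0.01 lower calls were 12 (Mrpl 9, Mrps 3, against 6.91% of all genes). The difference had 0 members there, where 3.18% of all genes were called above 0 and 2.54% below, so the Mrps2 difference rests on the threshold. Added after seeing the data, a coding length and GC trend gave 2 higher (Mrpl 1, against 13.0% of all genes), and leaving out members that overlap another gene or were not placed left 9 lower of 27 Mrpl (against 12.1% of all genes as deposited). The sign turned in 14 members with length and GC removed, in 23 with mean level added and in 7 with coding length. Among these Mrpl33, outside the rule for named genes, passed as higher in the first and second (0.29 and 0.33, against -0.03 as deposited). The named genes that turned, none of them passing, were Mrps18b (0.029 with length and GC removed, 0.12 with mean level added), Mrps24 (0.085, 0.16, and 0.012 with coding length), Mrpl12 (0.10 with mean level added) and Mrps18c (0.00016 there). Mrpl16 was called higher with length and GC removed and with mean level added. Mrpl50, outside the rule for named genes, was called higher in both and with coding length, and Mrpl43 with mean level added. The Mrps2 rise at 5 days kept its call in each setting run, and 10-day counts were 0 in each, with medians over the 77 members between -0.14 and -0.05. The cause of these shifts was not tested, and the shares of all genes given here are not matched to the members' level. No paired analysis was possible because the files hold no values of single libraries. For the same reason leaving out replicates and other normalizations were not run. The 10-day SEs limit what could be called there.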

Other observations

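In the DMSO controls, 62 of the 77 members were lower at 10 days than at 5 days, by a median of -0.29 log2 CPM, although genes at 4 log2 CPM or more in both tables had a median difference of -0.0075. The differences ran from -1.42 in Mrpl34 to 0.39 in Mrpl24. Over the 77 members the Pearson r with GC content was -0.65, and over the 7327 genes at that level it was -0.67. The tables were normalized separately, the genes share libraries, and the part of culture or library preparation in this difference was not tested.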
